A study of Zea mays with 40 samples.

Results

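Genes of maize (Zea mays) that make or control anthocyanin were followed in kernels during seed filling, and they were 10 of the 65196 rows of the expression table. They are listed by name, for their place in the pathway. The regulators were c1 (GRMZM2G005066) and r1 (GRMZM5G822829). The enzymes were c2 (GRMZM2G422750), whp1 (GRMZM2G151227), chi1 (GRMZM2G155329), f3h (GRMZM2G062396), a1 (GRMZM2G026930), a2 (GRMZM2G345717) and bz1 (GRMZM2G165390), and bz2 (GRMZM2G016241) acts in transport. Of these, 8 rows carried the GRMZM name, while c2 and chi1 stood under the symbols C2 and CHI and were found through the synonyms of the RefSeq gene table. Kernels of 4 inbred lines, labelled T147, T191, T209 and T210, were compared at 5 times from 10 to 50 days after pollination (DAP), every 10 days, with no treatment named. Seeds came from the middle of 2 ears per line and DAP, which the study treats as biological repeats, so that 40 RNA sequencing libraries formed 20 groups. The study's methods describe 2 parents of a recombinant inbred population and the lines YZU147 and YZU191. The labels T147 and T191 share these numbers, and it is not given which parent is T209 or T210. Each line is a single genotype, so a difference between lines is a difference between these inbreds, and kernel colour is not among the labels.

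Anthocyanins are red and purple flavonoid pigments that maize kernels can lay down in the aleurone, the outermost cell layer of the endosperm. In the aleurone the MYB protein C1 and the basic helix-loop-helix protein R1 act together to switch on the enzyme genes, and the loss of either leaves the kernel without anthocyanin. The pathway starts with chalcone synthase, passes through chalcone isomerase, flavanone 3-hydroxylase, dihydroflavonol reductase and anthocyanidin synthase, and ends with glucosylation and transfer into the vacuole. The first enzymes are shared with other flavonoids, among them the phlobaphenes of the pericarp and cob, which are under the control of the MYB gene p1.

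The values were FPKM, the fragments on a gene divided by its length and by the mapped fragments of the library, so levels of different genes can be set side by side. Differences were tested with limma on log2(FPKM + 1), and on this scale the change of a low gene is understated. All p-values are adjusted by the Benjamini-Hochberg method over the 43394 genes that reached 1 FPKM in 2 libraries or more, and a gene is said to have passed the test at an adjusted p under 0.05. Of the 10 genes, 9 were tested and a2 was too low. Relative depth, taken from the steps between low values, ranged from 0.612 to 2.30 times the median library, and Spearman's rho between the ears of a group ranged from 0.843 to 0.967 over genes. The deepest libraries were of T209 and T210 (0.903 to 2.30 and 0.866 to 2.07), against 0.612 to 1.61 in T147 and 0.650 to 1.19 in T191. The tops of the ranges of T209 and T210 were single libraries, the first ears at 30 DAP. No other library of these lines exceeded 1.21. The number of reads is unknown, so a value of 0 means only that the gene is listed at 0 in that library.

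The kernel libraries changed in tissue markers over the same period. The summed FPKM of 3 embryo markers, which include oleosin, was 407 to 1230 at 10 DAP and 20792 to 34638 at 50 DAP. That of 5 starchy endosperm markers, among them the starch genes sh2 and bt2, was 983 to 2352 at 10 DAP and 2.08 to 6.37 at 50 DAP. That of 3 markers of the basal transfer layer was 665 to 2477 at 10 DAP and 0 to 2.43 at 50 DAP, and that of 4 aleurone markers was 112 to 186 and 34 to 92.4 at these times. Of 5 listed aleurone genes, al9 (GRMZM2G091054) was left out because the RefSeq gene table did not pair its row with this name. That row ranged from 0.884 to 4353 FPKM over the libraries, with a median of 319, so the aleurone sum depends on leaving it out. The libraries labelled kernel thus held little RNA of starchy endosperm and transfer layer genes late in filling. Much of the change of embryo and transfer layer markers came early. At 20 DAP their sums were 3908 to 42570 and 1.09 to 123. The aleurone sum was then 58.4 to 80.7 and that of the starchy endosperm 618 to 1167. The genes c2, whp1, f3h and a1 fell in this same step from 10 to 20 DAP. Of the embryo markers, lec1 did not exceed 2.71 FPKM, so that sum rests on oleosin and glb2. The part of these tissue changes in the changes described here was not tested. In whole kernels, fewer cells of a type and less RNA per cell cannot be told apart.

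**Figure D1:**
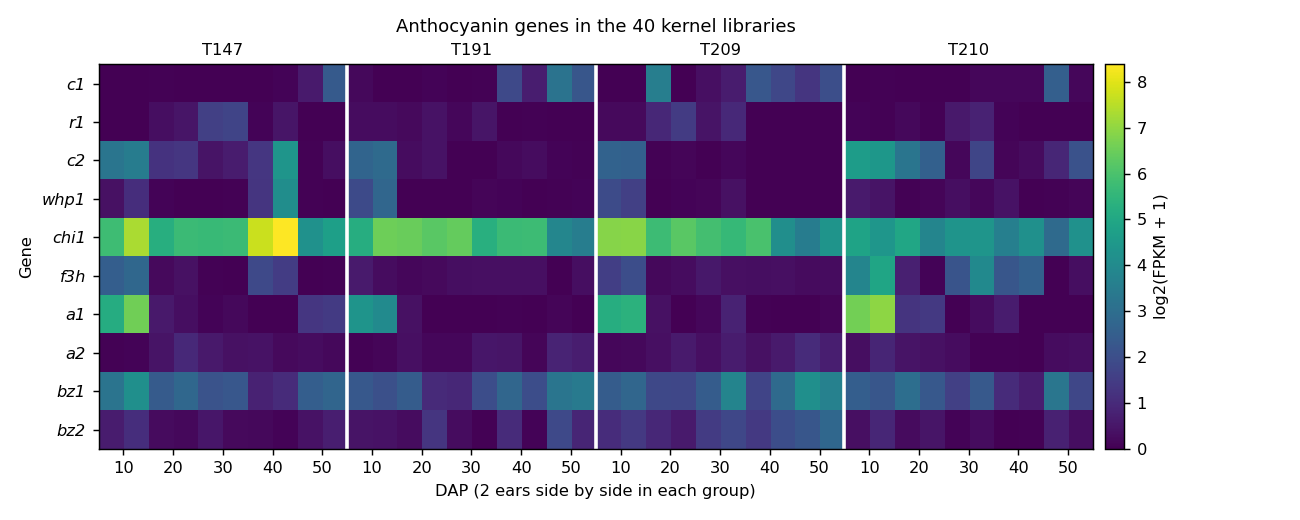
Levels of the 10 genes (rows) in the 40 libraries (columns), as log2(FPKM + 1) in colour, with the 4 lines side by side and 2 ears at each DAP. The row of chi1 is bright throughout, a1 is bright only at 10 DAP, and a2 is dark in every library, with a highest value of 1.04 FPKM.

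The genes lay at very different levels. The isomerase gene chi1 was at 1 FPKM or more in all 40 libraries, with a median of 42.8 FPKM and a highest value of 333. The glucosyltransferase gene bz1 followed with a median of 4.21 FPKM, and was at 1 FPKM or more in 37 libraries. The medians of the other 8 genes lay between 0.0484 FPKM for c1 and 0.406 for bz2, so that most libraries held little RNA of the regulators, of chalcone synthase and of the later enzymes. Several of these genes were nevertheless high in a few groups. The a1 gene reached 124 FPKM, f3h 29.4, c2 23.6, whp1 16.2 and c1 10.9. By contrast, r1 did not exceed 2.32 FPKM and bz2 did not exceed 5.90.

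The regulator c1 was a gene of late filling. Over the 8 libraries of a DAP, its lowest, median and highest values were 0, 0 and 0.145 FPKM at 10 DAP and 0, 0.0325 and 0.551 at 30 DAP. They were 0, 0.353 and 3.85 FPKM at 40 DAP and 0.115, 3.38 and 8.18 at 50 DAP. At 50 DAP the ears of T191 had 8.18 and 3.75 FPKM, those of T209 1.44 and 3.01, those of T147 0.529 and 4.18 and those of T210 4.78 and 0.115. All lines thus had c1 RNA at 50 DAP, and the ears of T147 and of T210 were so far apart that they span those of T209.

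At 40 DAP, c1 was above 0.5 FPKM in T191 (2.64 and 0.595) and T209 (3.85 and 2.42) and stayed under that level in T147 (0 and 0.0499) and T210 (0.110 and 0.111). The highest value of all stood in 1 ear of T209 at 20 DAP, with 10.9 FPKM beside 0 in the other ear. DAP changed c1 (adjusted p = 0.000486), and its rise from 40 to 50 DAP was 0.93 on the log2 scale (SE 0.36, adjusted p = 0.0489). That rise passed narrowly, since it was lost under 3 of the 6 other settings (adjusted p from 0.0519 to 0.0731) and in 33 of 40 fits with 1 library removed, with 0.63 and an adjusted p of 0.184 without the first ear of T210 at 50 DAP. The difference among lines missed the threshold (adjusted p = 0.0596), as did the change of line differences with DAP (adjusted p = 0.485). The difference among lines passed with a pseudocount of 0.1 (adjusted p = 0.0138). Without the second ear of T209 at 20 DAP, the ear at 0, it passed, and so did the change with DAP. The difference among lines also passed without the second ear of T147 at 50 DAP or of T191 at 40 DAP. It passed too without the first ear of T210 at 50 DAP. Each of these fits leaves 1 ear in a group, so the spread between its ears is no longer in the test. Such a pass is no support for a difference.

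The partner gene r1 was a gene of mid filling. Its highest levels were in T147 at 30 DAP, with 2.02 and 2.32 FPKM, followed by T209 at 20 DAP with 0.898 and 1.73. T210 had its highest values at 30 DAP (0.484 and 0.733), and T191 did not exceed 0.402 FPKM in any ear. The ears of T147 at 30 DAP lay above those of every other group, while those of T209 at 20 and at 30 DAP (0.363 and 0.970) overlapped.

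Over all lines, r1 rose by 0.36 from 10 to 20 DAP (SE 0.09, adjusted p = 0.00211) and by 0.34 from 20 to 30 DAP (SE 0.09, adjusted p = 0.00306). It then fell by 0.76 from 30 to 40 DAP (SE 0.09, adjusted p = 2.63e-07). At 50 DAP it was listed at 0 in 7 of the 8 libraries and at 0.0153 FPKM in the other. The medians of the 2 regulators were highest at different times, although in T209 both had their highest group mean at 20 DAP (5.44 FPKM for c1, from 1 ear, and 1.31 for r1). At 50 DAP, where c1 had its highest median, r1 was at or near 0, and at 30 DAP, where r1 had its highest median (0.608 FPKM), the median of c1 was 0.0325 FPKM. The line differences of r1 changed with DAP (adjusted p = 0.000360). The r1 gene belongs to a small family of similar genes, and whether reads were divided among them could not be checked from FPKM.

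**Figure D2:**
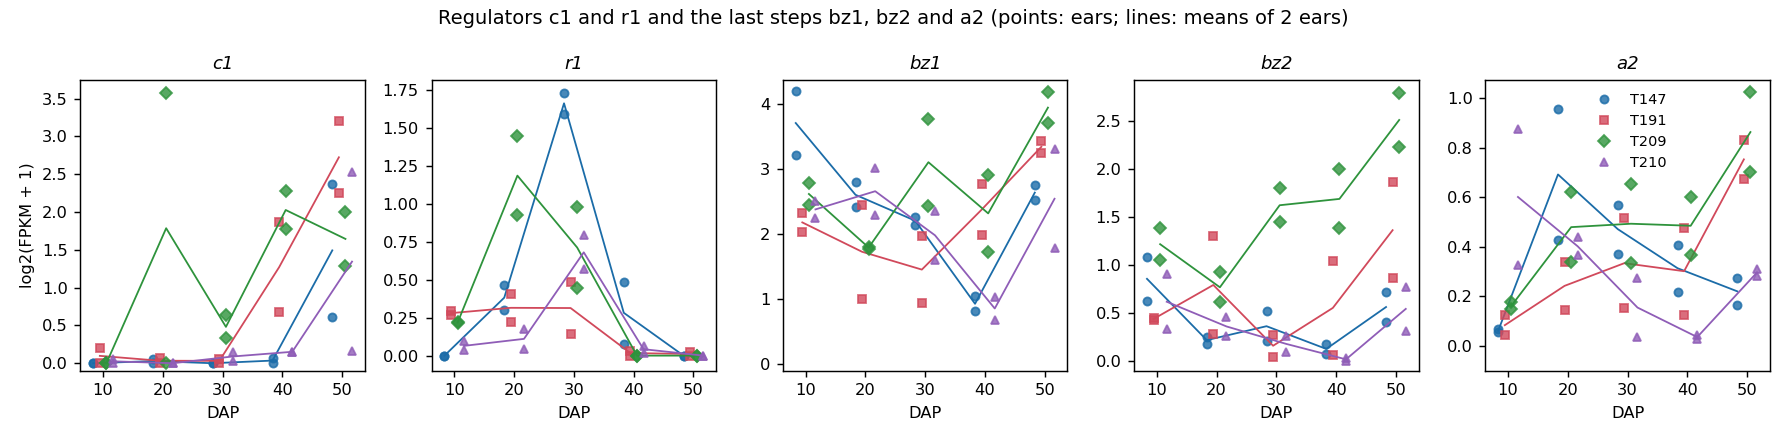
Levels of the regulators c1 and r1 and of bz1, bz2 and a2, as log2(FPKM + 1) against DAP, with a point per ear and a line through the means of the 2 ears for each of the 4 lines. The c1 values lie highest at 50 DAP apart from 1 ear of T209 at 20 DAP, r1 is highest in T147 at 30 DAP, and the T209 ears lie above the T210 ears for bz2 at every DAP. Each panel has its own vertical scale.

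A further 14 genes of flavonoid branches and regulators had been listed, of which 4 could be matched to a name in the RefSeq gene table and are described here. The vp1 gene (GRMZM2G133398), a seed transcription factor that activates c1 in maize, had 2.36 to 13.9 FPKM at 10 DAP and 41.9 to 164 at 50 DAP. It rose by 1.51 from 10 to 20 DAP (SE 0.35, adjusted p = 0.00140) and by 1.18 from 30 to 40 DAP (SE 0.35, adjusted p = 0.0109). Its RNA was thus at 14.8 FPKM or more at 30 DAP, when no library had more than 0.551 FPKM of c1.

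The p1 gene (GRMZM2G084799) was the regulator with the earliest peak. At 10 DAP its ears had 2.09 and 2.23 FPKM in T147, 1.52 and 1.75 in T210, 0.553 and 0.0223 in T209 and 0.0475 and 0 in T191. The ears of T147 and T210 lay above those of the other two lines, and p1 differed among the lines (adjusted p = 2.29e-07). It fell by 0.51 from 10 to 20 DAP (SE 0.07, adjusted p = 2.42e-06) and was listed at 0 in all 8 libraries at 40 DAP. A near copy of p1 exists in maize, and reads of both may have been shared.

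The WD40 gene pac1 (GRMZM2G058292), a cofactor of anthocyanin regulators, stood out by its evenness. It lay between 1.16 and 5.17 FPKM in all 40 libraries. It fell by 0.56 from 10 to 20 DAP (SE 0.15, adjusted p = 0.00530), and no difference among the lines passed the test (adjusted p = 0.490). The c1 homologue pl1 (GRMZM2G701063) was listed at 0 in 38 libraries and did not exceed 0.212 FPKM.

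Chalcone synthase, the first committed step, has duplicate genes in maize, c2 and whp1, and both were high early. At 10 DAP the ears had 23.6 and 20.9 FPKM of c2 in T210, 8.5 and 10.4 in T147, 5.52 and 6.53 in T191 and 5.27 and 4.93 in T209. T210 lay above T147, and T147 above the other two, whose ears lay between 4.93 and 6.53. Over the 8 libraries the lowest, median and highest values of c2 were 4.93, 7.51 and 23.6 FPKM at 10 DAP and 0.0420, 0.851 and 8.53 at 20 DAP. The fall between them was 2.17 on the log2 scale, given as -2.17 (SE 0.28, adjusted p = 7.49e-07).

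The lines left this early level at different rates. The mean of c2 at 10 DAP was 76.9 times that at 20 DAP in T209 and 22.0 times in T191, but 6.60 times in T147 and 3.29 times in T210. At 20 DAP, T210 still had 8.53 and 4.97 FPKM and T147 1.37 and 1.5, whereas no ear of T191 or T209 exceeded 0.335. From 20 to 30 DAP c2 fell further, by 0.77 (SE 0.28, adjusted p = 0.0308), with 0.109 and 2.33 FPKM in the ears of T210 at 30 DAP. T210 had c2 RNA again at 50 DAP (0.850 and 3.30 FPKM), where no other ear exceeded 0.249. This second fall did not pass in 7 of the 40 fits that left out 1 library. These were the fits without the first ear of T147 at 30 DAP, T209 at 30 DAP, T210 at 20 DAP or T210 at 30 DAP, and without the second ear of T147, T191 or T209 at 20 DAP (adjusted p from 0.0521 to 0.116).

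At 10 DAP the duplicate whp1 was far lower than c2 in T147 and T210 and closer to it in T191 and T209. The ears had 2.69 and 5.87 FPKM of whp1 in T191, 2.78 and 1.98 in T209, 0.297 and 1.14 in T147 and 0.521 and 0.345 in T210. The lines with the most c2 at 10 DAP thus had the least whp1. The mean of c2 at that time was 51.3 times that of whp1 in T210 and 13.2 times in T147, but 2.14 times in T209 and 1.41 times in T191.

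From 10 to 20 DAP whp1 fell by 1.29 (SE 0.23, adjusted p = 7.37e-05), and at 20 DAP no ear had more than 0.0705 FPKM. It was then high in a single group, T147 at 40 DAP, with 1.42 and 16.2 FPKM, while no ear of the other lines exceeded 0.335 at that time. The rise from 30 to 40 DAP (0.60, SE 0.23, adjusted p = 0.0428) and the fall from 40 to 50 DAP (-0.70, SE 0.23, adjusted p = 0.0212) rest on this group. The rise was 0.25 with an adjusted p of 0.113 without the second ear of T147 at 40 DAP and 0.96 without the first, and it was lost in 13 of the 40 fits and under 3 of the 6 other settings (adjusted p from 0.0550 to 0.139). The fall was -0.34 without the second ear and -1.05 without the first. Either fit leaves 1 ear in that group, so the wide spread between its ears is no longer in the test. A pass in such a fit is no support for the fall. Reads of such duplicates may be shared between their rows.

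**Figure D3:**
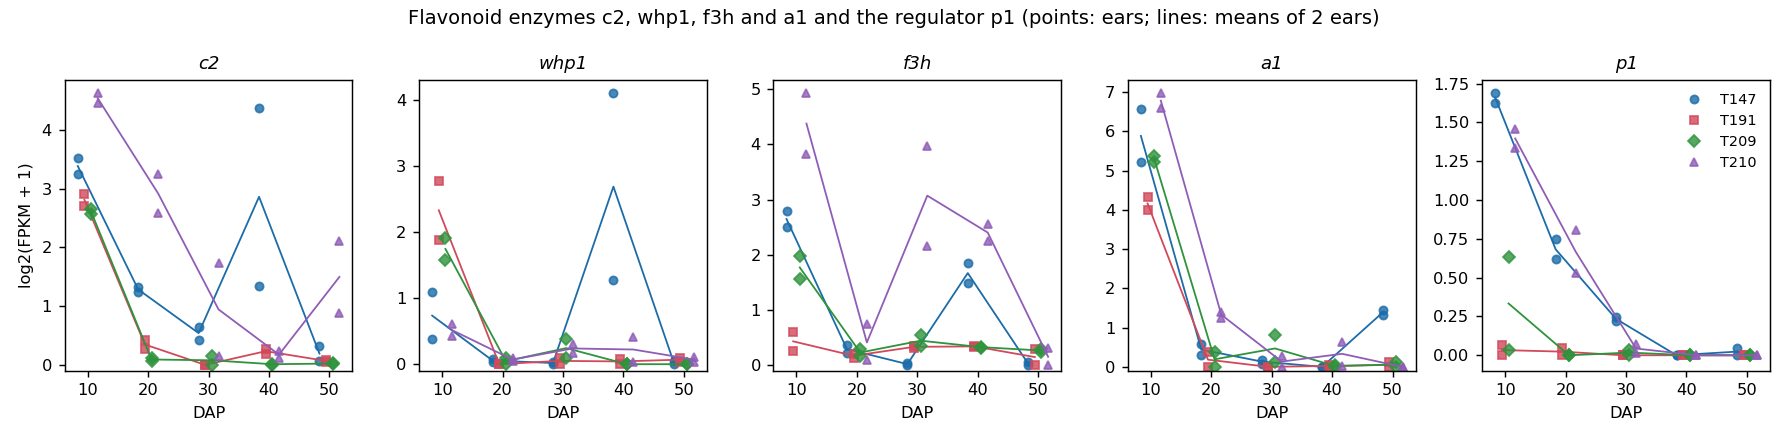
Levels of c2, whp1, f3h, a1 and the regulator p1, as log2(FPKM + 1) against DAP, with a point per ear and a line through the means of the 2 ears for each of the 4 lines. Each gene has high values at 10 DAP in some lines, T147 has a second peak of c2, whp1 and f3h at 40 DAP, and f3h returns in T210 at 30 and 40 DAP. Each panel has its own vertical scale.

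The chalcone isomerase gene chi1 stayed at 11.2 FPKM or more in every library up to 40 DAP, while the synthase genes fell after 10 DAP. Its lowest, median and highest values were 20.0, 72.3 and 157 FPKM at 10 DAP, 13.0, 51.7 and 87.8 at 20 DAP and 19.3, 48.2 and 82.7 at 30 DAP. At 50 DAP they were 6.39, 15.7 and 25.6 FPKM. Averaged over the lines, none of the 3 steps before 40 DAP passed the test (-0.43, -0.15 and 0.28). The lines differed, since the mean at 10 DAP was 2.39 times that at 20 DAP in T147 and 1.84 times in T209. In T191 the mean rose 1.27 times. From 40 to 50 DAP chi1 fell by 1.77 (SE 0.28, adjusted p = 3.12e-05). The mean at 40 DAP was 12.5 times that at 50 DAP in T147, 4.31 times in T191 and 2.61 times in T209. In T210 it was 1.18 times, and the ears overlapped (11.2 and 17.4 FPKM, then 6.39 and 17.9).

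Among the lines, T210 had the least chi1, with 6.39 to 30.0 FPKM over its 10 libraries and a median of 18.6. The medians were 51.3 FPKM in T147, 52 in T191 and 54.9 in T209. T210 was lower than T147 by 1.88 (T210 minus T147, -1.88, SE 0.25, adjusted p = 3.26e-06), and lower than T191 (T210 minus T191, -1.33, SE 0.25, adjusted p = 0.000255). The highest values of chi1 were those of T147 at 40 DAP, with 210 and 333 FPKM, while the other lines had between 11.2 and 61.4 FPKM. The mean in T147 rose 5.41 times from 30 to 40 DAP and was 12.5 times that at 50 DAP. The line differences of chi1 changed with DAP (adjusted p = 0.0242). That call was lost without the first ear of T147 at 40 DAP (adjusted p = 0.0557) or without the second (adjusted p = 0.130).

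The 2 described genes of enzymes that feed the pathway were high in the same group. Of 19 listed genes of general phenylpropanoid metabolism, 2 could be matched to a name, the phenylalanine ammonia-lyase gene pal1 (GRMZM2G074604) and a 4-coumarate-CoA ligase gene (GRMZM2G075333). The others were left out, so their levels in this group are not given. At 40 DAP pal1 had 642 and 792 FPKM in T147 and between 24.7 and 63.6 in the other lines. The ligase gene had 116 and 132 FPKM in T147 at 40 DAP, 50.3 and 49.5 in T210 and no more than 10.4 in T191 and T209. Both genes had line differences that changed with DAP (adjusted p = 0.00476 for pal1 and 0.000113 for the ligase). From 40 to 50 DAP pal1 fell by 3.13 (SE 0.32, adjusted p = 5.16e-08) and the ligase gene fell by 2.53 (SE 0.24, adjusted p = 1.95e-08), beside the fall of chi1.

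**Figure D4:**
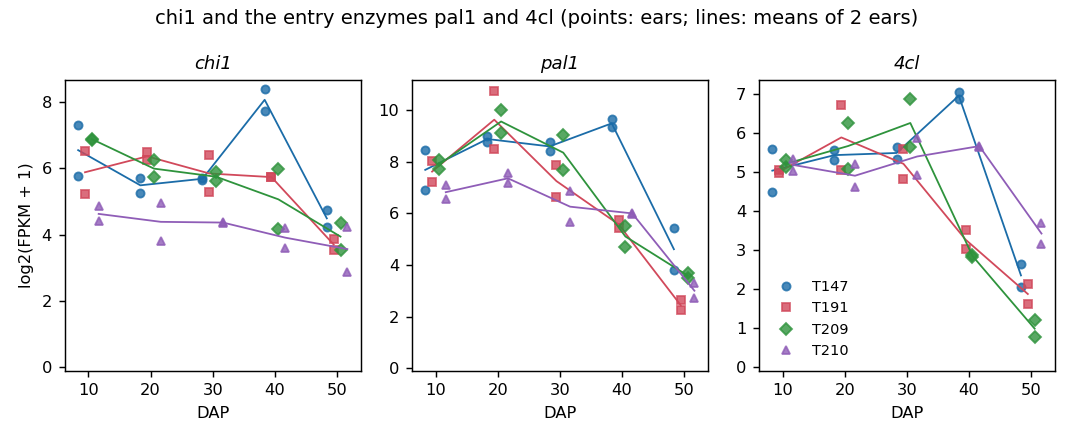
Levels of chi1, pal1 and the 4-coumarate-CoA ligase gene (4cl), as log2(FPKM + 1) against DAP, with a point per ear and a line through the means of the 2 ears for each of the 4 lines. At 40 DAP the 2 ears of T147 lie above those of the other lines in all 3 panels (210 and 333 FPKM for chi1), and all 3 genes are low at 50 DAP. Each panel has its own vertical scale.

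The f3h gene, for flavanone 3-hydroxylase, separated T210 from the other lines. At 10 DAP the ears of T210 had 13.2 and 29.4 FPKM, those of T147 4.68 and 5.92, those of T209 1.95 and 2.94 and those of T191 0.516 and 0.203. No ears of neighbouring lines overlapped in this order. At 20 DAP no ear exceeded 0.669 FPKM, a fall of 2.03 from 10 DAP, given as -2.03 (SE 0.18, adjusted p = 3.25e-09).

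The gene returned in T210, with 3.50 and 14.7 FPKM at 30 DAP and 3.73 and 4.92 at 40 DAP, and in T147 at 40 DAP, with 2.62 and 1.80. All ears of T191 and T209 after 10 DAP had 0.460 FPKM or less. The rise from 20 to 30 DAP over all lines (0.69, SE 0.18, adjusted p = 0.00443) thus contained a rise of 24.9 times in the mean of T210 and a mean in T147 that was lower at 30 than at 20 DAP. From 40 to 50 DAP f3h fell by 1.04 (SE 0.18, adjusted p = 0.000119), and at 50 DAP no ear exceeded 0.236 FPKM. The line differences of f3h changed with DAP (adjusted p = 6.51e-05).

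The a1 gene, for dihydroflavonol reductase, had the sharpest early peak of the 10 genes on the log2 scale. At 10 DAP its ears had 95.7 and 124 FPKM in T210, 35.9 and 93.3 in T147, 36.3 and 40.7 in T209 and 19.1 and 15.0 in T191. T210 lay above T147 in both ears, the range of T147 took in that of T209, and T191 was lowest. By 20 DAP no ear exceeded 1.64 FPKM. The fall was -5.00 on the log2 scale (SE 0.15, adjusted p = 3.5e-18), and the mean at 10 DAP was 72.5 times that at 20 DAP in T210, 118 times in T191, 179 times in T147 and 252 times in T209.

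After 10 DAP, a1 stayed near 0. At 40 DAP it was listed at 0 in 4 of the 8 libraries, with a highest value of 0.552 FPKM in 1 ear of T210. It was listed at 0 in both ears of T147 at 40 DAP, the group with the highest chi1. A small return was seen in T147 at 50 DAP (1.51 and 1.71 FPKM), while no ear of the other lines had more than 0.0837 FPKM at that time. The step from 40 to 50 DAP over all lines did not pass the test (0.28, SE 0.15, adjusted p = 0.161). The line differences of a1 changed with DAP (adjusted p = 0.000514).

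The a2 gene, for anthocyanidin synthase, was above 0 in every library but reached 1 FPKM only in 1 ear of T209 at 50 DAP (1.04). Its lowest, median and highest values were 0.0315, 0.0991 and 0.836 FPKM at 10 DAP and 0.122, 0.419 and 1.04 at 50 DAP. It was thus not high at 10 DAP when a1 was, and the mean of a1 at 10 DAP was between 201 and 1471 times that of a2. When all 61785 rows above 0 in a library were tested with no filter, a2 differed among DAP (adjusted p = 0.0335) and its line differences changed with DAP (adjusted p = 0.0485), while the difference among the lines did not pass (adjusted p = 0.218).

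The last steps rose late, from 40 to 50 DAP. The lowest, median and highest values of bz1, which encodes the enzyme that adds glucose to the pigment, were 3.10, 4.56 and 17.2 FPKM at 10 DAP, 0.601, 1.69 and 6.47 at 40 DAP and 2.43, 8.66 and 17.1 at 50 DAP. From 40 to 50 DAP bz1 rose by 1.49 (SE 0.26, adjusted p = 8.82e-05), and its mean rose 6.85 times in T210, 5.75 times in T147, 3.31 times in T209 and 2.09 times in T191. At 50 DAP the ears had 17.1 and 12 FPKM in T209, 8.48 and 9.76 in T191, 4.72 and 5.73 in T147 and 8.85 and 2.43 in T210. T209 lay above T191 and T191 above T147, while the ears of T210 took in the range of T147.

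T147 differed in having its highest bz1 at 10 DAP (8.26 and 17.2 FPKM) and its lowest at 40 DAP (0.761 and 1.06). T210 was likewise lowest at 40 DAP (1.05 and 0.601 FPKM), where T191 had 5.80 and 2.94 and T209 2.31 and 6.47. The line differences of bz1 changed with DAP (adjusted p = 0.0240). That call was lost without the second ear of T147 at 10 DAP (adjusted p = 0.0548) and without the first ear of T191 at 40 DAP (adjusted p = 0.0504).

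The bz2 gene encodes a glutathione S-transferase that is needed to move the pigment into the vacuole, and it was mainly a gene of T209. Its lowest, median and highest values over 10 libraries were 0.528, 1.67 and 5.90 FPKM in T209, against 0.0323, 0.356 and 2.64 in T191, 0.0546, 0.262 and 1.12 in T147 and 0, 0.221 and 0.870 in T210. In T209 the ears had 1.07 and 1.61 FPKM at 10 DAP, 0.898 and 0.528 at 20 DAP, 1.73 and 2.47 at 30 DAP, 1.60 and 2.98 at 40 DAP and 3.69 and 5.90 at 50 DAP. Both ears of T209 lay above both ears of T210 at every DAP. Over all lines bz2 rose by 0.65 from 40 to 50 DAP (SE 0.17, adjusted p = 0.00537). The mean of bz2 at 50 DAP was nevertheless lower than that at 10 DAP in T147 and T210, where the mean at 10 DAP was 1.72 and 1.19 times as high. A change of its line differences with DAP was not called (adjusted p = 0.105). It passed without the first ear of T191 at 20 DAP or the second at 50 DAP. Either fit drops the spread between the ears of that group, so such a pass is no support.

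Counted over the steps of filling, most of the calls stood at its start and its end. All 9 tested genes differed among the 5 DAP, where 85.8% of all genes did so. From 10 to 20 DAP, 5 of the 9 passed, beside 35.6% of all genes. Of these, r1 rose (9.86% of all genes rose) and c2, whp1, f3h and a1 fell (25.7% fell), and the median difference was -0.52 over the 9 genes and -0.05 over all genes. In all genes 27.7% of the calls at this step were higher at 20 DAP, or 43.6% when the libraries were rescaled.

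From 20 to 30 DAP, 3 of 9 passed beside 36.9% of all genes, with r1 and f3h higher (21.2% of all genes) and c2 lower (15.7%). From 30 to 40 DAP, 2 of 9 passed beside 35.9%, with whp1 higher (17.3%) and r1 lower (18.6%). From 40 to 50 DAP, 6 of 9 passed beside 32.8%, with c1, bz1 and bz2 higher (15.9%) and whp1, chi1 and f3h lower (16.9%). The count from 40 to 50 DAP thus joined a fall of whp1, chi1 and f3h and a rise of c1, bz1 and bz2. The first synthase gene c2 was not called at this step (-0.37, SE 0.28, adjusted p = 0.324). The fall of f3h lay in T210 and T147, since no ear of T191 or T209 exceeded 0.276 FPKM at 40 DAP. The call of c1 passed only narrowly, and the fall of whp1 rested on T147 at 40 DAP.

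Between T147 and T191, the lines that share the numbers of YZU147 and YZU191, 4 of the 9 genes passed over the mean of the 5 DAP, beside 22.4% of all genes. All 4 were lower in T191 (10.6% of all genes were lower and 11.8% higher), and the median difference was -0.28 over the 9 genes and 0.03 over all genes. They were c2 (T191 minus T147, -0.96, SE 0.25, adjusted p = 0.00559), a1 (-0.68, SE 0.13, adjusted p = 0.000483), f3h (-0.65, SE 0.17, adjusted p = 0.00528) and r1 (-0.28, SE 0.08, adjusted p = 0.0111). The call of r1 was lost with a pseudocount of 0.1 (adjusted p = 0.109). This order did not hold at every DAP for every gene. At 10 DAP r1 had 0.225 and 0.204 FPKM in T191 and 0 in both ears of T147. At 30 DAP f3h had 0.249 and 0.272 FPKM in T191 and 0.0291 and 0 in T147. The regulator p1 was also lower in T191 (-0.51, SE 0.06, adjusted p = 1.26e-06), and so was pal1 (-1.35, SE 0.28, adjusted p = 0.000907). Differences of c1 (0.52, SE 0.32), chi1 (-0.55, SE 0.25), whp1 (-0.21, SE 0.21), bz1 (-0.20, SE 0.23) and bz2 (0.24, SE 0.15) did not pass.

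Between T209 and T210, 8 of the 9 genes passed, beside 40.0% of all genes. Lower in T209 were f3h (T209 minus T210, -1.48, SE 0.17, adjusted p = 1.35e-07), c2 (-1.45, SE 0.25, adjusted p = 4.36e-05) and a1 (-0.51, SE 0.13, adjusted p = 0.00389). Higher in T209 were chi1 (1.35, SE 0.25, adjusted p = 0.000120), bz2 (1.22, SE 0.15, adjusted p = 9.04e-07), c1 (0.87, SE 0.32, adjusted p = 0.0340), bz1 (0.67, SE 0.23, adjusted p = 0.0231) and r1 (0.24, SE 0.08, adjusted p = 0.0151). Averaged over the 5 DAP, T210 thus had more RNA of c2, f3h and a1, and T209 had more of both regulators, of chi1 and of both last steps. This order did not hold at every DAP for every gene. The mean of bz1 at 20 DAP was 2.46 FPKM in T209 and 5.49 in T210, and that of c1 at 50 DAP was 2.22 and 2.45. Among all genes, 23.2% were higher and 16.9% lower in T209.

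Some of these calls were close to the threshold. That of c1 was lost with no filter (adjusted p = 0.0527), with rescaled libraries (adjusted p = 0.0621) and in 12 of the 40 fits that left out 1 library, with 0.51 and an adjusted p of 0.105 without the first ear of T209 at 20 DAP. That of bz1 was lost without the second ear of T209 at 30 or 40 DAP or of T210 at 20 or 50 DAP, or without the first ear of T210 at 30 DAP (adjusted p from 0.0541 to 0.0710). That of a1 was lost with a pseudocount of 0.1 (adjusted p = 0.0586). The regulator p1 was lower in T209 (-0.35, SE 0.06, adjusted p = 8.03e-05). The differences of pac1 (-0.03, SE 0.14, adjusted p = 0.871) and vp1 (-0.03, SE 0.32, adjusted p = 0.958) did not pass.

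**Figure D5:**
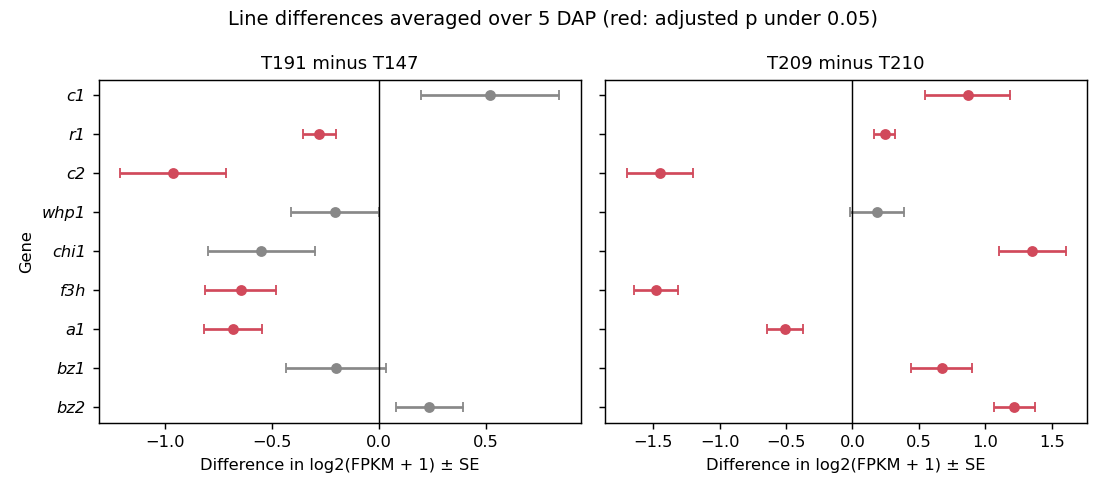
Difference in log2(FPKM + 1) averaged over the 5 DAP, with its standard error as bars, for the 9 tested genes, as T191 minus T147 on the left and T209 minus T210 on the right. Red marks an adjusted p under 0.05 and grey the others. On the right c2, f3h and a1 lie below 0 and c1, r1, chi1, bz1 and bz2 above it, and each panel has its own horizontal scale.

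The other pairs of lines repeated single genes of these lists. In T210 minus T191, 4 of 9 passed beside 28.6% of all genes (11.5% higher and 17.0% lower), with f3h (1.80, SE 0.17, adjusted p = 1.04e-08), c2 (1.32, SE 0.25, adjusted p = 0.000236) and a1 (0.83, SE 0.13, adjusted p = 4.46e-05) higher in T210 and chi1 lower. In T210 minus T147, 3 of 9 passed beside 18.2% (8.80% higher and 9.43% lower), with f3h higher in T210 (1.15, SE 0.17, adjusted p = 9.03e-06) and chi1 and r1 lower (r1 -0.29, SE 0.08, adjusted p = 0.0103). The call of r1 was lost with relative depth as a term of the model (adjusted p = 0.10).

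In T209 minus T147, 3 of 9 passed beside 25.0% (13.6% higher and 11.4% lower). They were bz2 (1.13, SE 0.15, adjusted p = 3.81e-06) and c1 (0.88, SE 0.32, adjusted p = 0.0473), higher in T209, and c2, lower (-1.09, SE 0.25, adjusted p = 0.00164). The call of c1 was lost under 4 of the 6 other settings (adjusted p from 0.0510 to 0.0815) and in 31 of the 40 fits that left out 1 library, with 0.52 and an adjusted p of 0.136 without the first ear of T209 at 20 DAP. In T209 minus T191, only bz2 passed (0.90, SE 0.15, adjusted p = 0.000175), 1 of 9 beside 11.5% of all genes (5.51% higher and 6.03% lower). Each line stands in 3 of these 6 pairs, so the counts of the pairs are not independent.

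Taken over the 4 lines, 6 of the 9 genes differed, beside 49.1% of all genes. These were r1, c2, chi1, f3h, a1 and bz2, and the count was 7 with a pseudocount of 0.1 and 6 to 8 in the fits that left out 1 library. For whp1 the adjusted p was 0.228, and the difference passed without the first ear of T147 at 40 DAP. For bz1 the adjusted p was 0.0780. Its difference passed without the first ear of T191 at 20 DAP, T209 at 30 or 40 DAP or T210 at 50 DAP. It passed too without the second ear of T191 at 30 DAP. Each of these fits drops the spread between the ears of a group, so such a pass is no support. The line differences changed with DAP in 7 of the 9, all but c1 and bz2, beside 22.9% of all genes. The call of c2 was lost in 1 of the 40 fits, that without the first ear of T210 at 40 DAP (adjusted p = 0.0505).

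T147 at 40 DAP stood apart from the other lines at that time by the upper part of the pathway. Both of its ears lay above all ears of T191, T209 and T210 for whp1 (1.42 and 16.2 FPKM), c2 (1.53 and 19.8) and chi1 (210 and 333). The next highest values at 40 DAP were 0.335 FPKM for whp1, 0.209 for c2 and 61.4 for chi1. For f3h the ears (2.62 and 1.80 FPKM) lay above those of T191 and T209 and below those of T210. The genes of the lower part did not share this, since a1 was listed at 0 in both ears and bz1 (0.761 and 1.06 FPKM) and bz2 (0.132 and 0.0546) were low. The ears themselves differed, with c2 and whp1 above 10 FPKM only in the second. No difference at a single DAP was tested.

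Over the 20 group means of log2(FPKM + 1), the early genes c2, f3h and a1 varied together, and so did bz1 and bz2. As a description without a test, Pearson's r was 0.75 between c2 and a1, 0.63 between c2 and whp1, 0.61 between c2 and f3h and 0.60 between f3h and a1. It was 0.70 between bz1 and bz2, 0.64 between whp1 and chi1, and between -0.52 and -0.37 for c1 with c2, whp1, chi1, f3h and a1. The regulator p1 followed a1 (0.77) and c2 (0.69), vp1 followed c1 (0.52), and pal1 followed chi1 (0.77). These groups share the course of DAP and the libraries, and a1 was also opposed to vp1 (-0.83). With either ear alone r was 0.59 between bz1 and bz2, it was 0.39 between c1 and vp1 in the first ear, and it was 0.83 and 0.59 between c2 and p1 in the first and the second ear.

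Many genes outside the pathway followed the same course, so that a1 ranked 223 among the 43393 other rows by likeness to c2, and c2 ranked 2405 by likeness to a1. Likewise bz2 ranked 53 by likeness to bz1, and bz1 ranked 970 by likeness to bz2. Assembled loci left out, the rows most like a1 were GRMZM2G150134 (r = 0.98), GRMZM2G114356 (0.98) and GRMZM2G092442 (0.97). Those most like chi1 were GRMZM2G311182 (0.92), AC166636.1_FG008 (0.88) and GRMZM2G067257 (0.87). Those most like c2 were GRMZM2G150893 (0.90), GRMZM2G060940 (0.89) and GRMZM2G074462 (0.87), and those most like f3h were GRMZM2G401511 (0.88), GRMZM5G863097 (0.86) and GRMZM2G174773 (0.85).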

How the data were processed

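RNA of maize kernels was sequenced as 40 libraries, with line, DAP and repeat number taken from the library labels. The repeats are called ears here after the study's methods, and the ear number is the repeat number. The authors deposited FPKM calculated from gene length and read counts. The submitters' processing notes name Bowtie 0.12.2, Cuffdiff and the build B73 RefGen_v3. The table has 35991 rows with GRMZM names and 25650 assembled loci, so reads may be divided between overlapping rows. The RefSeq gene table (Zm-B73-REFERENCE-NAM-5.0) was used for names only.

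Values were put on the scale log2(FPKM + 1), and 20 group means were estimated together by limma 3.58.1 (R 4.3.3; moderated by empirical Bayes, variance trend on). Genes that reached 1 FPKM in 2 libraries or more entered two-sided contrasts between lines (averaged over DAP) and successive DAP (averaged over lines), F tests, and Benjamini-Hochberg adjustment. The members, lists and markers were chosen with earlier results of these data known. The genes named are the 10 members, the annotated genes of the lists, and the 3 rows, assembled loci left out, most correlated with each of the 4 members whose highest group mean was largest. Relative depth came from ratios of values under 0.3 FPKM. All 780 pairs of libraries fitted to within 0.02 as natural logs. Each ratio was picked near the joint fit, so this agreement was partly built in and is no check of the depths. The analysis was tested on simulated data. Alternatives were a pseudocount of 0.1, no filter, rescaled libraries, the ear number as a block, relative depth as a term, no variance trend, and each library left out in turn. The p-values measure the spread between 2 ears. A fit with 1 library left out has 1 ear in that group, which then adds nothing to this spread. A pass gained in such a fit is thus no support.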

Additional observations from a re-analysis of the deposited data

Results flagged for a closer look

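The line differences changed with DAP in 7 genes, by the interaction test of limma with Benjamini-Hochberg adjustment over all genes tested. The adjusted p was 6.51e-05 for f3h, which returned to 3.50 to 14.7 FPKM at 30 and 40 DAP in T210. It was 0.000360 for r1 and 0.000514 for a1. It was 0.00313 for whp1, whose highest values were in T147 at 40 DAP, and 0.0151 for c2. It was 0.0240 for bz1 and 0.0242 for chi1. Ears far from the other ear of their group were not tested.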

How the results depend on the processing

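Of 111 single results, 84 kept their call in all 46 alternatives (40 that left out 1 library and 6 others). The number of the 9 genes called in T209 minus T191 rose from 1 to 2 with no filter, with rescaled libraries and with relative depth as a term, and was 1 to 2 when 1 library was left out. For the step from 30 to 40 DAP the number fell from 2 to 1 with no filter and with relative depth as a term, and was 1 to 3 when 1 library was left out. The number of all genes called in T210 minus T191 fell from 12389 to 8133 with relative depth as a term. The difference of c1 in the step from 10 to 20 DAP (0.43) ranged from -0.0153 to 0.88 when 1 library was left out. The number called ranged over these fits from 6 to 8 in T209 minus T210 and from 2 to 4 in T209 minus T147. The cause was not tested. Rescaling used 11635 genes and factors from 0.814 to 1.38.

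With the ear number as a replicate block, 2 genes instead of 1 were called in T209 minus T191, and the counts of members called were the same in all other tests. The labels do not say that ear numbers pair libraries of different groups. The deviations of same-numbered ears correlated at -0.37 to 0.47 over 190 pairs of groups, above 0.1 in 35. This cannot decide whether same-numbered ears share a factor. Low relative depth limits the genes near 0 FPKM.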
